A study of Homo sapiens with 9 samples.

Results

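GATA1, TAL1, KLF1, LMO2 and NFE2 are genes of transcription factors that direct the development of red blood cells, and here they were followed through the small RNAs of K562, a line established from chronic myelogenous leukemia that expresses red cell genes. The members were fixed by gene name and by the bounds of each gene in GRCh37 (hg19), and they are 5 of 20163 protein-coding genes measured in the same way. The bounds are chrX:48644982-48652717 (+) for GATA1, chr1:47681962-47698007 (−) for TAL1, chr19:12995237-12998017 (−) for KLF1, chr11:33880122-33913836 (−) for LMO2 and chr12:54685891-54694799 (−) for NFE2. RNA from 3 batches of untreated K562 cells was sequenced after selection of inserts of 20–40 nt, and the deposited values pool the 3 batches, whereas the 6 HEK293 samples of the study (transfected with small RNA overexpression vectors with or without doxycycline, or with a control vector without it) were not used here. With the batches pooled there is 1 value for each alignment and no replicate error, so no test was run and every interval below (95%) covers counting error alone.

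GATA1 is a zinc finger protein that binds the GATA sequence and is required for the formation of red cells and megakaryocytes. TAL1, a basic helix-loop-helix protein, binds neighbouring E-box sequences, and LMO2, a LIM protein that does not itself contact DNA, bridges TAL1 to GATA1 in a complex that also holds LDB1. KLF1 is a zinc finger activator of the CACCC box of the adult beta-globin promoter, and NFE2 is the large subunit of a dimer with a small MAF protein that binds the globin locus control region.

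The sequences of the species on which the results turn were read from GRCh37 at the deposited coordinates and are given 5′ to 3′. A cluster in intron 5 of LMO2 held more reads than any other in the 5 genes, and 3 of its alignments are shown, at chr11:33882575-33882603 (24 reads), chr11:33882573-33882599 (5 reads) and chr11:33882577-33882603 (4 reads), all on the minus strand. Capitals mark the 22 bases present in each of the 11 alignments of at least 18 nt in that cluster.

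LMO2 intron 5, 29 nt: agccTATGATGGCTGCCATTTCACTGagg
LMO2 intron 5, 27 nt, later start: TATGATGGCTGCCATTTCACTGaggct
LMO2 intron 5, 27 nt, same start: agccTATGATGGCTGCCATTTCACTGa

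In TAL1 the species shown are those that mark the region of its first exon. The first, at chr1:47697828-47697848 (−), runs across the 5′ splice site of intron 1, and capitals mark its 11 intron bases. The other two lie in intron 1, on the sense strand at chr1:47697536-47697553 (−) and on the opposite strand at chr1:47697774-47697791 (+).

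TAL1 exon 1 into intron 1: gcggaaaaacGTGAGCATTCT
TAL1 intron 1, sense: ttcgtggttgtgtgcatg
TAL1 intron 1, antisense: ttgatgaagaattcggtg

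For GATA1, 3 species of its coding exons with at least 2 reads are shown, and for KLF1 the leading antisense species and the leading sense species of at least 18 nt. Those of GATA1 lie at chrX:48650739-48650756 and chrX:48650767-48650787 in exon 4 and at chrX:48649520-48649543 in exon 2. Another, at chrX:48650704-48650729, ends at the last base of intron 3, and its 2 capitals are the last bases of that intron. Those of KLF1 lie at chr19:12996266-12996284 (+), antisense to exon 2, and at chr19:12995442-12995460 (−) in the 3′ UTR.

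GATA1 exon 4, 18 nt: agtgtgtgaactgcggag
GATA1 exon 4, 21 nt: tccactgtggcggagggacag
GATA1 exon 2: gagttccctggcctggggtccctg
GATA1 end of intron 3: ccctcttctcctctccaccccaccAG
KLF1 exon 2, antisense: cggctatcacacctggatc
KLF1 3′ UTR: agatgtccaaactgtcgtg

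The last set marks ends of transcripts and exons. The species of LMO2 at chr11:33880123-33880145 (−) lies 1 nt before the annotated end of the gene, and its capitals mark AATAAA, the sequence that directs cleavage and polyadenylation. That of NFE2 at chr12:54694762-54694784 (−) begins 15 nt downstream of the gene start. Species at chr11:33886148-33886176 (−) and chr12:54688919-54688939 (−) end with the last base of exon 5 of LMO2 and of exon 2 of NFE2, and capitals mark their last 2 bases.

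LMO2 3′ end: cttAATAAAaatgacagactgaa
NFE2 start: tgcttggggctcctgtgctcagc
LMO2 end of exon 5: cggaagctctgccggagagactatctcAG
NFE2 end of exon 2: atgtccatcaccgagctgcAG

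The table lists 3688019 alignments of 10 to 42 nt. The deposited read number of an alignment is its own reads multiplied by the number of listed alignments with nearly the same ends (a total shift of at most 3 nt, itself included), and division gave 47670688 reads in all. These divided numbers are called recovered reads, or simply reads. RPKM values are as deposited, which means that they carry the inferred multiplication and exceed what the recovered reads alone would give wherever an alignment has near neighbours. Markers of K562 were present, since HBG1, HBG2, HBE1, HBZ, TFRC, BCR and ABL1 had exon densities of 10.95 (BCR) to 356 (HBG2) reads per kb. Of the markers of other cell types given here, 0 of 2 hepatocyte genes, 1 of 2 epithelial genes (EPCAM, 3.29 per kb, whereas CDH1 was at 0) and 0 of 2 fibroblast genes lay at 2 times the median of all genes or above. The part of these other markers in the values of the 5 genes was not tested.

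Within the 5 genes, 362 sense alignments held 534 reads and 106 antisense alignments held 141 reads. Single reads made up most of the listing, because 76.2% of the sense and 84.0% of the antisense alignments rest on 1 read, against 73.6% of all alignments in the table. Of the 331 alignments of at least 18 nt within the bounds of the genes, 322 matched the genome exactly at 1 place. In contrast, 9.09% of those of 10–14 nt did so, with a median of 122 matches, and 61.0% of those of 15–17 nt. Levels below are therefore given for alignments of at least 18 nt, which numbered 268 sense alignments with 409 reads and 63 antisense alignments with 86 reads.

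Sense exon reads. All 5 genes carried exonic small RNAs at a high density for protein-coding genes. KLF1 had 34 reads over 1.612 kb of exon, which is 21.1 per kb (interval 14.6–29.5). TAL1 had 82 reads, 14.4 per kb (11.4–17.8), and GATA1 had 21 reads, 13.8 per kb (8.56–21.1). NFE2 had 31 reads, 13.1 per kb (8.91–18.6), and LMO2 had 36 reads, 12.4 per kb (8.71–17.2). In this order no gene was separated from the next by counting error, and the intervals of the highest and the lowest also overlapped.

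The median over all 20163 protein-coding genes was 1.25 per kb, and 37.6% of them lay at least 2-fold above it, whereas 5 of the 5 factor genes did. Their median was 13.8 per kb, and their positions ran from the 92.5th percentile (LMO2) to the 96.3rd (KLF1). The plot of reads per kb by strand and element sets these levels beside the introns and the opposite strand. In bulk RNA, reads per cell and the share of cells that express a gene cannot be told apart.

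**Figure D1:**
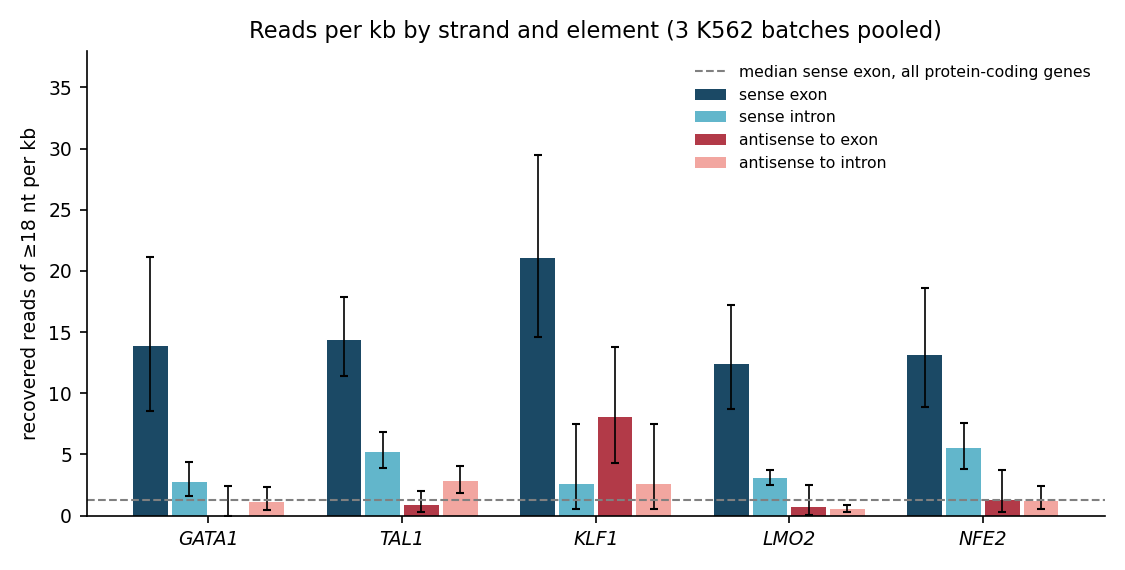
Recovered reads of at least 18 nt per kb (y axis) in exons and introns on the sense and antisense strands of each gene (x axis), 3 K562 batches pooled; bars are densities and lines their exact Poisson 95% intervals. Sense exons are the highest bar in every gene, from 12.4 in LMO2 to 21.1 in KLF1, above the dashed median of all genes at 1.25, and KLF1 has the highest antisense exon bar at 8.06.

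The sense reads were spread over many positions. Covered bases made up 15.2% of the exon length in TAL1, 15.7% in NFE2, 16.8% in LMO2, 20.5% in GATA1 and 25.3% in KLF1. Merging of overlapping alignments of all lengths gave 74 sense clusters in TAL1, 59 in LMO2, 45 in NFE2, 32 in GATA1 and 25 in KLF1, of which 7, 2, 1, 1 and 3, respectively, held 5 or more reads. In comparison, 41 of the 74 in TAL1 and 22 of the 32 in GATA1 were single reads.

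The interval of the coding sequence lay apart from those of both UTRs in TAL1 and NFE2 alone. In GATA1, 19 of 21 exon reads fell in the coding sequence of 1239 nt (15.3 per kb, interval 9.23–23.9), and 0 fell in its 3′ UTR of 149 nt, where a count of 0 allows up to 3 reads. The interval of this short 3′ UTR reached 24.8 per kb and so included the value of the coding sequence. In TAL1 the 5′ UTR had 9 reads (41.7 per kb, 19.1–79.1), the long 3′ UTR 56 reads (16.3 per kb, 12.3–21.2) and the coding sequence 5 reads (5.04 per kb, 1.63–11.8), and the interval of the coding sequence did not overlap those of the UTRs. In NFE2 the 5′ UTR had 13 reads (47.97 per kb, 25.5–82.0), the 3′ UTR 8 reads (30.1 per kb, 13.0–59.3) and the coding sequence 5 reads (4.47 per kb, 1.45–10.4). KLF1 had 22.1 per kb in its coding sequence and 21.5 per kb in its 3′ UTR, and LMO2 had 17.6 and 25.5 per kb, in both cases within counting error of each other.

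**Figure D2:**
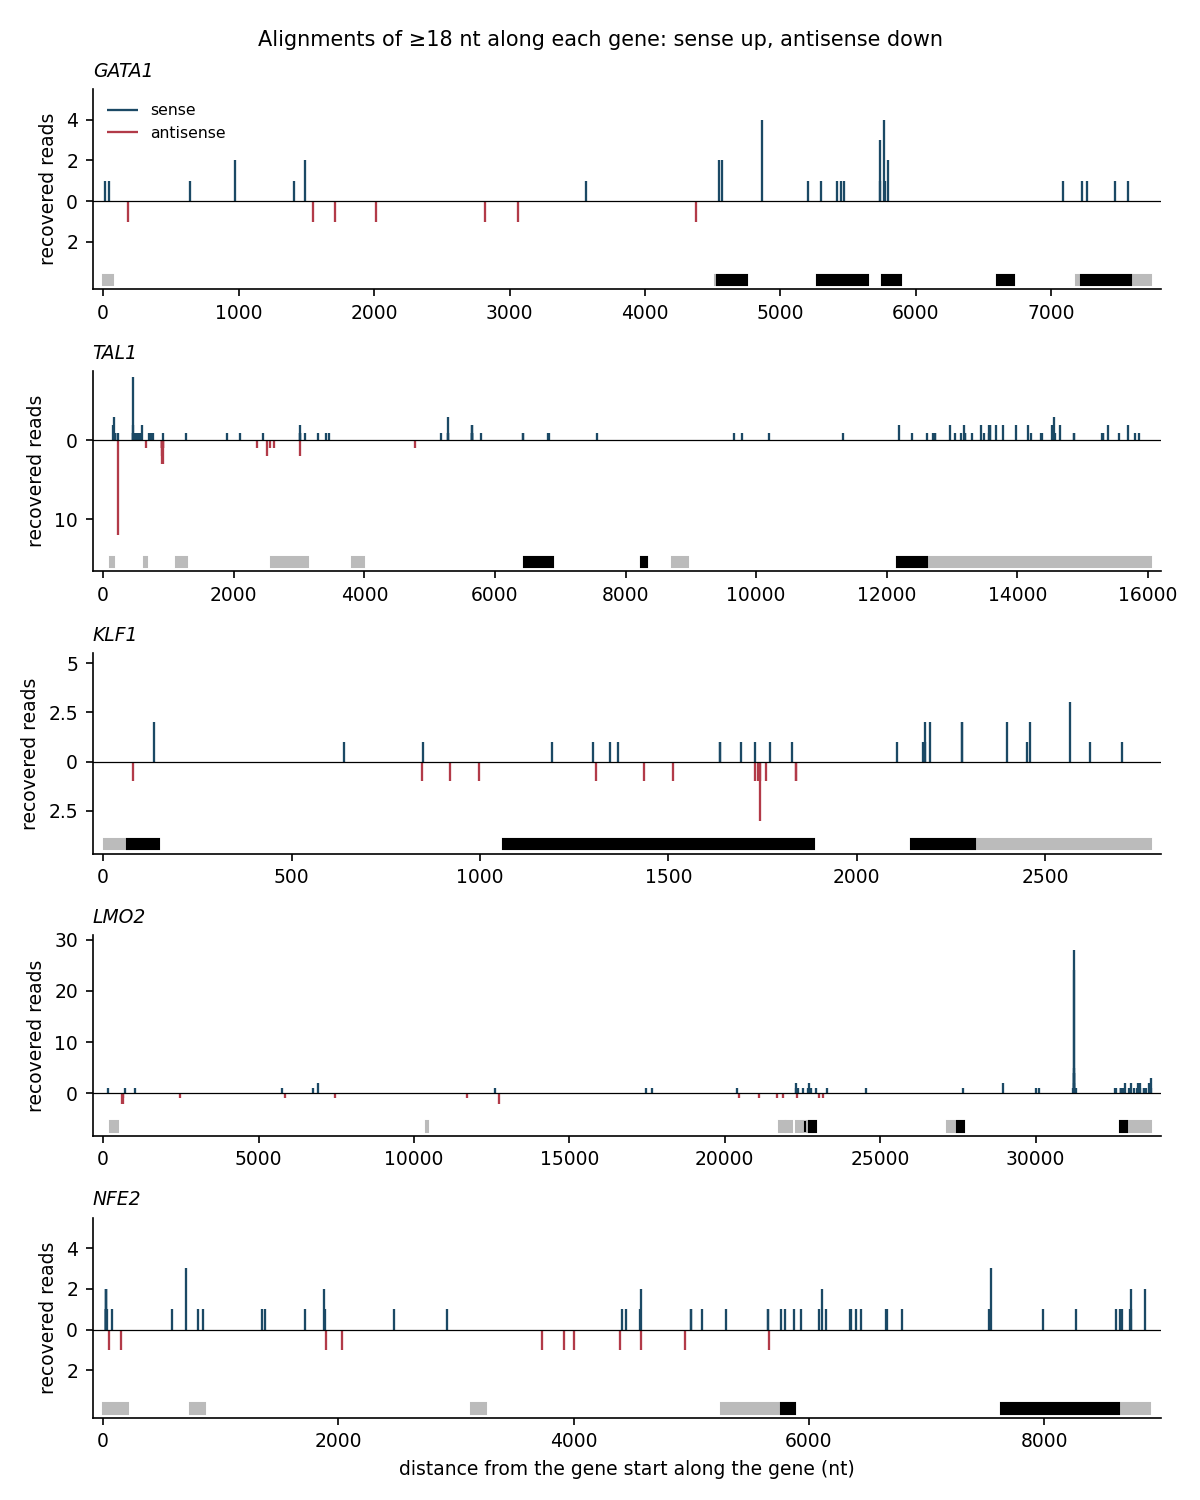
Recovered reads (y axis) of each alignment of at least 18 nt by the distance of its centre from the gene start in nt (x axis), with sense reads up and antisense reads down, and with exons in grey and coding sequence in black under each map. LMO2 has a single tall group in an intron that reaches 28 reads, TAL1 has sense and antisense groups within its first 1000 nt, and the other 3 genes have no alignment of this length above 4 reads.

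GATA1. Exon 4 had the highest density of the 6 exons, with 7 reads in 146 nt (47.9 per kb). The 18-nt species shown for it held 4 reads (4.10 RPKM) and covers codons 203–209 of 413, and the 21-nt species held 2 reads and covers codons 212–219, both in the coding sequence of the N-terminal zinc finger, which contacts the cofactor FOG1. The exon 2 species held 2 reads and begins at codon 2. A 17-nt species in exon 3 (codons 120–125) held 2 reads and was the most abundant of the shorter sense species.

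Among the introns of GATA1, intron 3 is the shortest (101 nt) and held 4 reads (39.6 per kb, 10.8–101), of which 3 belong to the 26-nt species that ends at the 3′ splice site. Intron 1, which takes up most of the gene, held 7 reads (1.58 per kb, 0.633–3.25). A single 18-nt species at chrX:48649837-48649854 in intron 2 held 4 reads.

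TAL1. The first 1000 nt of the gene held its most abundant species on both strands. Intron 1 had 41 sense reads (14.6 per kb, 10.5–19.8), against 19 in intron 2 (5.75 per kb), 1 in intron 3 (0.744 per kb) and 4 in intron 4 (1.04 per kb). Alignments were given here to the element of the principal transcript that holds their centre, so that 11 of these reads (9 in intron 1 and 2 in intron 2) also overlap an exon and are among the 82 exon reads of the gene. The intron 1 species shown held 8 reads (24.6 RPKM) within a cluster of 10 alignments and 18 reads at chr1:47697492-47697553. A further cluster of 14 alignments and 17 reads at chr1:47697813-47697892 covers exon 1 and the start of intron 1.

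The 5′ splice site of intron 1 was crossed without a gap by 9 alignments of at least 18 nt (11 reads), of which the species shown held 3 reads. These were the 9 such alignments in all 5 genes, or 3.36% of the 268 sense alignments, and over all protein-coding genes 5631 of 576147 (0.977%) crossed a 5′ splice site. As the members were not replicates and 1 site gave every one of these alignments, the difference was not tested. No alignment of at least 18 nt in the 5 genes began at the first base of an exon or of an intron. Over all protein-coding genes these shares were also small, at 0.121% and 0.436%, respectively.

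On the opposite strand of intron 1, the 18-nt antisense species held 12 reads (24.6 RPKM), more than any antisense species of the other 4 genes. Together with a 17-nt alignment with the same 5′ end it held 15 reads, and a second antisense cluster of 10 alignments and 15 reads lay at chr1:47697078-47697113. In exons, by comparison, TAL1 had 5 antisense reads. In the 3′ UTR the most abundant species was a 23-nt alignment at chr1:47683442-47683464 with 3 reads, and a 15-nt species in intron 2 held 6 reads but matched the genome at 5 places.

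KLF1. Exon 3, which holds the end of the coding sequence and the 3′ UTR, had 22 reads in 638 nt (34.5 per kb), against 10 reads in exon 2 (12.1 per kb) and 2 in exon 1 (13.5 per kb). A cluster at chr19:12995813-12995850 held 9 reads in 7 alignments, and the 23-nt species at chr19:12995726-12995748 (2 reads) covers codons 347–354 of 362. The 3′ UTR species shown held 3 reads. The 24-nt species at chr19:12997871-12997894 held the 2 reads of exon 1.

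The most abundant sense species of KLF1 had 14 nt (6 reads, 39.6 RPKM) and lay in a cluster of 14 reads in exon 2, of which none was longer than 16 nt. It matched the genome at 3 places and adds nothing to the densities above. Inclusion of all lengths from 10 nt raised the exon density of KLF1 to 37.2 per kb.

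LMO2. The gene was set apart by 1 cluster in intron 5, at chr11:33882570-33882603. It held 73 reads in 12 alignments, which is 44.5% of the 164 sense reads of the gene, and 62 of the 73 had the same 5′ end. Its 2 leading alignments were 32 nt (28 reads, 80.8 RPKM) and 29 nt (24 reads, 76.4 RPKM) long, and both were unique in the genome. Of 1320648 alignments of at least 18 nt in the table, 1.57% had 28 or more reads.

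Intron 5 accordingly had 80 reads (15.9 per kb, 12.6–19.8), whereas introns 1, 2 and 4 had 0.606, 0.591 and 0.442 per kb and intron 3 had 0 reads in 123 nt. Of the 7 reads centred in intron 2, 1 also overlaps an exon. The plot of the cluster in intron 5 shows the common 5′ end and the scattered 3′ ends.

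**Figure D3:**
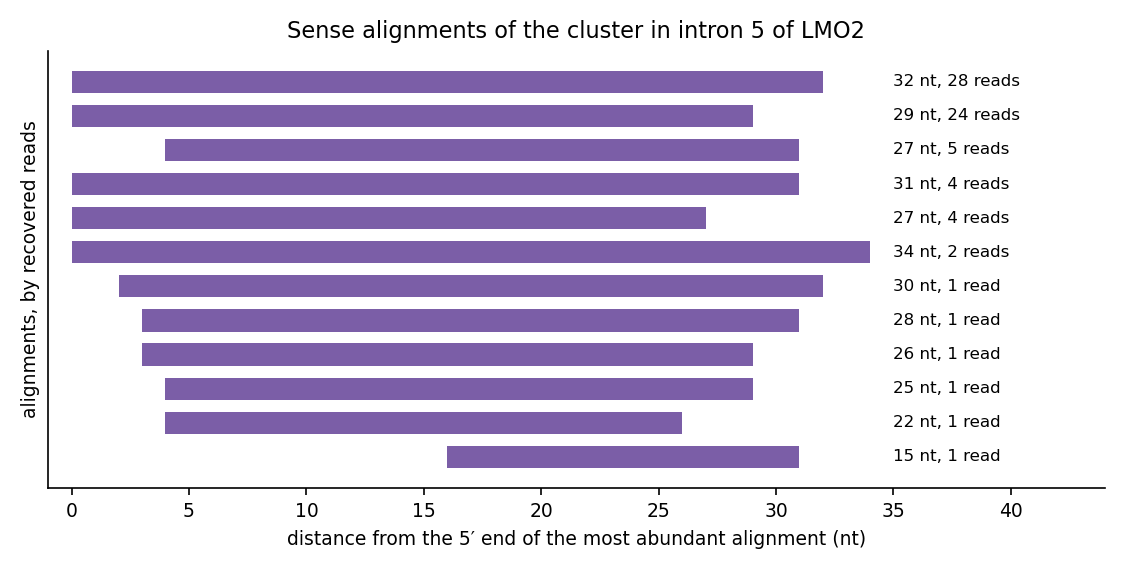
The 12 sense alignments of the cluster in intron 5 of LMO2, ordered by recovered reads (y axis, numbers at right), by distance in nt from the 5′ end of the most abundant alignment (x axis). The 5 alignments that start at 0 hold 62 of the 73 reads and end at 5 different positions between 27 and 34 nt.

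In the exons of LMO2, 27 of 36 reads came from exon 6 (27.0 per kb), which holds the 3′ UTR. The species at the 3′ end of the gene held 3 reads, and a 22-nt alignment with the same 5′ end held a further read. A 17-nt species in the coding part of exon 6 (codons 182–187 of 227, 5 reads) was the most abundant sense species under 18 nt.

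NFE2. Exon 1 had 12 reads in 215 nt (55.8 per kb), exon 2 had 3 reads (17.6 per kb) and exon 3 had 11 reads (8.65 per kb). The leading cluster, at chr12:54694753-54694787, had 9 alignments and 12 reads, and all its reads of at least 18 nt began 12 to 18 nt downstream of the gene start. The highest read number of an alignment in NFE2 was 3, in a 26-nt species of intron 1 at chr12:54694084-54694109 and a 23-nt species of intron 2 at chr12:54687240-54687262. Intron 1 had 3.64 reads per kb (2.22–5.62) and intron 2 had 9.13 per kb (5.22–14.8).

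At the end of exon 2 of NFE2, a 17-nt species (2 reads) and the 21-nt species shown (1 read) shared their 3′ end with the exon. Over the 5 genes, 2 of 268 alignments of at least 18 nt (0.746%) ended at the last base of an exon and 1 of 268 (0.373%) at the last base of an intron, and over all protein-coding genes these shares were 0.798% and 0.792%.

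Exons against introns. The ratio of sense exon to sense intron density was 8.22 in KLF1 (interval 2.58–41.8), 5.06 in GATA1 (2.54–10.2), 4.03 in LMO2 (2.67–5.98), 2.75 in TAL1 (1.93–3.96) and 2.39 in NFE2 (1.43–3.97). The intervals all lay above 1 and overlapped one another. At least 2-fold higher density in exons was found for 5 of 5 genes, and 65.9% of the 13193 genes with at least 10 such reads met the same rule. The members' median of 4.03 was close to the 3.85 of the 12873 genes that have intron reads.

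This ratio depended on single clusters and on the read unit. With deposited reads, TAL1 fell to 1.47 and LMO2 to 1.298, which left 3 of 5 genes at 2-fold, beside 58.7% of 13680 genes over the whole table with that unit. Without the leading cluster of each gene, LMO2 rose to 16.7 and NFE2 came to 1.54.

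Sense against antisense. Reads opposite to the exons numbered 0 in GATA1, 5 in TAL1, 13 in KLF1, 2 in LMO2 and 3 in NFE2. Sense reads were 18-fold higher in LMO2 (interval 4.63–154), 16.4-fold in TAL1 (6.75–51.8), 10.3-fold in NFE2 (3.22–52.8) and 2.62-fold in KLF1 (1.35–5.40). In GATA1 there were 21 sense reads and 0 antisense reads, so that sense reads were at least 7-fold higher when the antisense count over its exons is set at 3 reads, and the exact interval of the ratio begins at 5.21. At least 2-fold higher sense reads were found in 5 of 5 genes and in 84.0% of the 9800 genes with at least 10 exon reads.

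KLF1 had the lowest sense share of exon reads, 72.3% (58.2–83.1, Wilson), and the other 4 genes had 91.2% to 100%, beside a median of 92.6% over the genes tested. Of its 23 antisense reads of all lengths, 8 lay in a cluster at chr19:12996250-12996296 in exon 2. That cluster holds the 19-nt species shown (3 reads, opposite codons 254–260). A further 5 reads lay in a cluster at chr19:12996168-12996188, also in exon 2. Both clusters include alignments of 17 nt, which are left out of the exon reads above. The annotation has no other gene within the bounds of KLF1, and the nearest is a lncRNA on the plus strand that ends 335 nt away. TAL1, LMO2 and NFE2 are overlapped by a lncRNA on the opposite strand. That of TAL1 is annotated at chr1:47691469-47696422, which holds neither of the TAL1 antisense clusters of 15 reads.

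Opposite the introns there were 29 antisense reads in TAL1 (2.80 per kb), 16 in LMO2 (0.519 per kb), 8 in NFE2 (1.22 per kb), 7 in GATA1 (1.13 per kb) and 3 in KLF1 (2.57 per kb). Each of the 9 antisense alignments of GATA1, of all lengths, was a single read in an intron, as was each of the 17 of NFE2 a single read. In LMO2, 3 antisense alignments of at least 18 nt held 2 reads each, among them a 25-nt species in intron 1 at chr11:33913205-33913229.

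Start sites. Reads within 200 nt of the gene start, on both strands, were compared with the rest of the gene. NFE2 had 19 reads there, 23.7 per kb against 3.67 per kb elsewhere, a ratio of 6.45 (interval 3.65–10.9), and TAL1 had 16 reads, 20.0 against 4.92 per kb, a ratio of 4.05 (2.26–6.79). GATA1 (3 reads, ratio 1.34, 0.266–4.20), LMO2 (2 reads, ratio 1.13, 0.136–4.15) and KLF1 (7 reads, ratio 0.901, 0.345–2.00) were not separated from the rest of the gene. Thus 2 of 5 genes were at least 2-fold higher at the start, and 52.4% of 15138 genes were.

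The reads at the NFE2 start were 17 sense, of which 12 lay downstream and 5 upstream, and 2 antisense. The start of COPZ1, a coat protein gene on the opposite strand, lies 187 nt upstream of NFE2. The NFE2 value was 2.71 without the leading cluster, 2.11 with windows of 1000 nt and 15.6 with deposited reads. At TAL1, 14 sense reads lay downstream and 2 antisense reads upstream, and at KLF1 the start held 2 sense reads and 5 antisense reads, 4 of the latter upstream.

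The bound used for TAL1 lies 110 nt upstream of the start of its principal transcript. Around that annotated start, within 200 nt, there were 15 sense and 12 antisense reads. The 12 antisense reads were all those of the 18-nt antisense species of intron 1 shown above. Around a second annotated start, 620 nt into the gene, there were 26 sense reads and 1 antisense read. When the windows of all annotated starts were used, TAL1 kept a ratio of 3.87 and NFE2 came to 2.22. The bound used for LMO2 lies 213 nt upstream of the start of its principal transcript. That start is therefore outside the window of 200 nt behind the LMO2 value above. Around it, within 200 nt, there were 1 sense read and 0 antisense reads, and with all annotated starts LMO2 came to 1.56.

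Lengths. Sense reads had a median length of 20 nt and antisense reads of 18 nt. Reads of at least 18 nt made up 76.6% (72.8–79.99) of sense and 61.0% (52.8–68.7) of antisense reads, so the intervals did not overlap. In sense exons, 35.8% of reads were 20–24 nt and 0.717% were 30–42 nt, whereas in sense introns these shares were 22.4% and 16.1%. Of the 43 sense reads of 30–42 nt, 35 came from the intron 5 cluster of LMO2. The introns of LMO2, which hold that cluster, also lower the intron share of 20–24 nt, with 10 of 115 reads (8.70%). In NFE2 alone this order was reversed, with 39.0% of exon reads and 45.0% of intron reads at 20–24 nt. All 6 of the antisense reads of 23 nt in NFE2 were separate single-read alignments at different places.

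Related genes. Among 30 partners and co-regulators of the 5 factors, 25 (83.3%) had exon densities at least 2-fold above the median of all genes, beside the 37.6% of all genes, and their median was 4.85 per kb. The highest were HDAC1, a histone deacetylase, with 15.4 per kb (11.8–19.8), LYL1, a close relative of TAL1, with 14.7 (10.8–19.7), and MYB, a factor of blood progenitors, with 12.6 (9.77–15.9). LDB1, the partner that links LMO2 complexes, had 11.9, and GATA2, which GATA1 replaces during red cell maturation, had 11.4. GFI1, the relative of GFI1B with roles outside red cells, had 0 reads, and BCL11A, a repressor of fetal globin, had 2 reads (0.0816 per kb).

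Of 35 genes that these factors are known to act on in red cells, 32 (91.4%) met the rule, with a median of 7.52 per kb. HBG2 and HBG1, the fetal globins, had 356 and 190 per kb, and HBE1, the embryonic globin, had 284. HBG1 and HBG2 are near-identical copies, as are HBA1 and HBA2, and their reads cannot be assigned with certainty. HBB, the adult globin driven by KLF1, had 4 reads (3.07 per kb, 0.836–7.85). SLC4A1, the anion exchanger of the red cell membrane, and EPB42, which binds it, had 0 reads.

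In contrast, of 11 factors of other blood lineages 2 (18.2%) met the rule, and their median was 0.209 per kb. The highest were the myeloid factors CEBPA with 10 reads (3.84 per kb, 1.84–7.07) and SPI1 with 7 reads (3.43 per kb, 1.38–7.07), followed by ETV6 (1.38 per kb), and CEBPE, EBF1, GATA3, FLI1 and IRF8 had 0 reads. Of 9 members of the same protein families that were listed as acting outside red cells none met the rule, and 6 had 0 reads. The others were KLF4 (2.18 per kb), NFE2L3 (1.86) and GATA5 (0.763). Relatives such as GATA2, LYL1, NFE2L1, NFE2L2 and LMO4 had been placed among the partners instead. These met the rule, at densities from 2.58 (LMO4) to 14.7 (LYL1) per kb. The absence of calls among the 9 therefore depends on how relatives were assigned to the lists. These lists describe this pool of libraries, and no difference between them was tested.

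**Figure D4:**
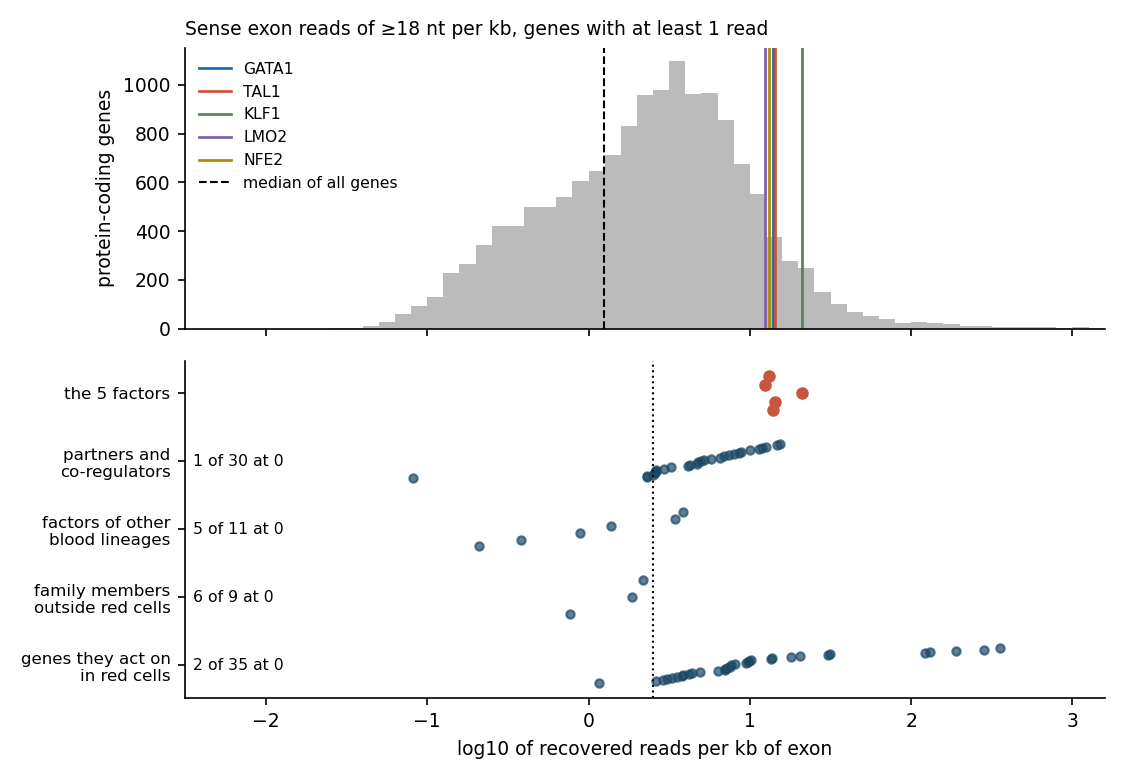
Top, number of protein-coding genes (y axis) by log10 of sense exon reads of at least 18 nt per kb (x axis), with the 5 factor genes as coloured lines and the median of all genes dashed; bottom, the same density for the 5 factors and 4 lists of related genes, 1 point per gene, spread vertically only for legibility, with the 2-fold rule dotted and genes without reads counted at the left. The 5 factors lie between 12.4 and 21.1 per kb in the upper tail, and 25 of 30 partners but 2 of 11 factors of other lineages lie above the dotted line.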

How the data were processed

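Small RNA of 3 K562 batches (inserts of 20–40 nt) was sequenced and aligned by the authors to GRCh37 (hg19) with Bowtie2 2.2.9, per the submitters' processing notes and the methods of the study, and uniquely mapping reads were stated to be kept. The values deposited by the authors are a whole-number read count and an RPKM for each alignment, with the batches pooled. All RPKM values share a denominator of 54140681 reads. The deposited reads sum to 718601614. They were divided by the number of listed neighbours on the same strand (total end shift at most 3 nt, itself included), which gave whole numbers for 1246133 of 1246133 alignments with neighbours and 47670688 recovered reads. Of these, 75.6% were at least 18 nt long.

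Exons were the union over the transcripts of GENCODE release 44 on GRCh37, and codon, UTR and intron numbers follow the principal transcript. An alignment within the bounds was exonic when it overlapped an exon, otherwise intronic. Densities are recovered reads of at least 18 nt per kb, with exact Poisson intervals, ratios have exact conditional binomial intervals, and shares Wilson intervals (95%). Reads carry no molecular identifiers, so intervals cover counting error only. A count of 0 was set at 3 reads for bounds. A gene was called at 2-fold, and ratios over all genes required at least 10 reads. With pooled values, no test between samples could be run. Sequences and exact genome matches were read from the GRCh37 sequence. For each gene, the 3 sense exon alignments of most reads, and the leading sense intron, antisense, start-site and under-18-nt alignments, were considered for naming, with the 3 densest genes of each list and its zero-read genes where 5 or fewer. LDB1, GATA2, BCL11A, HBB, the clusters and the splice-site species were named after their values were seen. The members and lists were chosen with earlier results of these data known. Alternatives varied the read unit, length, read minimum, exon definition, start window and leading alignments. Python 3.11.15 was used with pandas 2.3.3, pysam 0.24.0, numba 0.67.0, scipy 1.17.1, matplotlib 3.10.9 and numpy 2.4.6, and each step was tested on simulated data. The T and B cell marker list and 1 marker of K562 are not reported here. The 6 HEK293 samples were not analysed here.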

Additional observations from a re-analysis of the deposited data

How the results depend on the processing

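The number of the 5 genes at least 2-fold above the median exon density was 5 under all 9 alternatives run, and the number with at least 2-fold higher sense than antisense exon reads was 5 under all 7. In the latter, KLF1 ranged from 2.0 (without the leading cluster of each gene), which is on the cut-off, to 5.67 (at least 2 recovered reads). Most of all genes tested met the sense over antisense rule in every setting, up to 89.8% with a minimum of 20 nt. Fewer met the exon density rule, with 37.6% of all genes in the main setting and at most 41.4%, with at least 2 recovered reads. The exon over intron count went from 5 to 3 with deposited reads (58.7% of all genes tested, from 65.9%) and to 4 without the leading cluster of each gene, an alternative chosen after seeing the data. The start-site count went from 2 to 3 when each alignment was counted once (60.3% of all genes tested, from 52.4%) and without the leading clusters, in both cases through LMO2, at 2.29 and 2.199. Single values moved beyond their counting interval in 30 of 145 gene-level comparisons and no call turned direction, although start-site ratios near 1 crossed it, as in GATA1 (0.777 with a window of 1000 nt), LMO2 (0.385 with deposited reads) and KLF1 (1.07 without the leading cluster). A minimum of 2 recovered reads lowered the exon densities to between 4.23 (NFE2) and 10.5 (KLF1) per kb, and a minimum of 20 nt lowered those of TAL1, KLF1, LMO2 and NFE2 to between 7.25 and 11.2 per kb. Deposited reads raised the exon density of NFE2 from 13.1 to 25.8 per kb, and all lengths from 10 nt raised that of KLF1 from 21.1 to 37.2 per kb. The directions of these density changes follow from the settings, which remove reads or add them. The cause of their size in each gene was not tested. The related genes called numbered 59 of 85 and between 42 and 62 under the alternatives. The 42 came with all lengths from 10 nt, where the share of all genes past the exon density rule was also the lowest of the settings. The 62 came with exons of the principal transcript, where 39.4% of all genes met the rule. No paired analysis was possible because the 3 batches are pooled in every value, and for the same reason no batch could be left out in turn. Depth limits the comparison among the 5 genes, as 21 to 82 exon reads leave all of their density intervals overlapping.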
